A study of Rattus norvegicus with 4 samples.

Results

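The mitochondrial respiratory chain and ATP synthase were followed through 88 genes, which a table of 21473 probes with the authors' raw and normalized values lists with 107 probes. They were chosen by symbol alone: the symbol starts with Nduf, Sdha to Sdhd, Uqcr, Atp5 or Cox4 to Cox8, or is Cyc1 or Cycs. Of the 88 genes, 75 encode subunits of the complexes, 7 encode assembly factors, 5 are gene copies or pseudogenes and 1 is unrelated. By complex the subunit genes number 35 in complex I, 4 in complex II, 7 in complex III, 13 in complex IV and 15 in complex V, with cytochrome c apart. Ndufa4 was counted with complex IV, where its product is known to sit.

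Cells from the bone marrow of Wistar rats aged 6 weeks were cultured for 15 days at high density (2 arrays) or at regular density, the control (2 arrays). The submitters name the cells endothelial progenitor cells, and the sources describe 2 independent experiments with different high density cells. No genotype, sex or drug treatment is given in the sources used here. Total RNA was copied, labelled with Cy3 and hybridised to 1-colour Agilent arrays, on which the brightness of a printed probe measures its RNA.

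Complexes I and II pass electrons from NADH and succinate to coenzyme Q, complex III passes them to cytochrome c, and complex IV, cytochrome c oxidase, passes them to oxygen. Complexes I, III and IV pump protons across the inner mitochondrial membrane, and ATP synthase, complex V, uses their return to make ATP. Several small subunits of complex IV exist as isoforms of different genes. Cox6a2 is the isoform of heart and skeletal muscle and Cox6a1 the widespread one, and Cox6b2 is the testis isoform beside the widespread Cox6b1. The subunits read from mitochondrial DNA are not among the genes chosen here.

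The promoters of Cox6a2 and Cox6b2, the subunit genes that differed most between the cultures, are printed beside those of Atp5c1 and Atp5i, subunits of ATP synthase chosen because they hold motifs found in many subunit promoters. Each window runs from 250 bases before to 50 bases after the gene's start in RefSeq on the GRCr8 build, read along the gene's strand, and capitals mark the motifs searched. The windows lie at chr1:192219667-192219966 on the minus strand (Cox6a2), chr1:78122621-78122920 on the plus strand (Cox6b2), chr17:73333435-73333734 on the plus strand (Atp5c1) and chr14:1464610-1464909 on the plus strand (Atp5i).
Cox6a2: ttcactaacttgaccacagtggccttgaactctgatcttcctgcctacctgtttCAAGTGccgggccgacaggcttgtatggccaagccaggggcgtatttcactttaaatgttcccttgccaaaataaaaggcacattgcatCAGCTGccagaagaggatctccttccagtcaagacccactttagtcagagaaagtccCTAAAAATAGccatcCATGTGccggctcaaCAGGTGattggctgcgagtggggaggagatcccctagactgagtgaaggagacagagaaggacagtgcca
Cox6b2: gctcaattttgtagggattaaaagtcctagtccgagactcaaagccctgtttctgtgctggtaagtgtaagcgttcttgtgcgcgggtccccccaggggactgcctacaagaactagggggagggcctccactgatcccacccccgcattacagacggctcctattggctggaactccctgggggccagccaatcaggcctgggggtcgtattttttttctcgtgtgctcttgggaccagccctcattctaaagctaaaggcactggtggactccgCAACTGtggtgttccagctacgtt
Atp5c1: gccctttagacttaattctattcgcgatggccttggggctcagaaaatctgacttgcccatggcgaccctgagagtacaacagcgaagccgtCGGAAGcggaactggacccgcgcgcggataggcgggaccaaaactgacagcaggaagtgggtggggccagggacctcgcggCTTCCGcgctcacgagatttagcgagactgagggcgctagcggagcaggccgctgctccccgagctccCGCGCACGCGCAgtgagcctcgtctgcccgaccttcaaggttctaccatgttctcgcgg
Atp5i: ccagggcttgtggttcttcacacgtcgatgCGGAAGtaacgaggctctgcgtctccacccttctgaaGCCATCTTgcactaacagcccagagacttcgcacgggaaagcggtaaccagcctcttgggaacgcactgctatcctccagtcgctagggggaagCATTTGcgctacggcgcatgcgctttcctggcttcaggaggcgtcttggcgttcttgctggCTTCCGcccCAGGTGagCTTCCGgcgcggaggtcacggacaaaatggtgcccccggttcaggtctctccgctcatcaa

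The motifs, searched on both strands, were the sites of GABP and YY1, the E-box, the TATA box and the full consensus sites of NRF-1 and of MEF2. The letters searched for GABP and other ETS factors were CGGAAG. For YY1, a factor known to bind many promoters of mitochondrial genes near their start, they were AANATGGC. The E-box, which muscle regulators of the MyoD family and many other factors bind, was searched as CANNTG. The TATA box, which lies before the start of many tissue-restricted genes, was searched as TATAAA. The Cox6a2 window holds 4 E-boxes and 1 MEF2 match, at bases -50 to -41 from the start, and no NRF-1, GABP or YY1 match. The Cox6b2 window holds 1 E-box and none of the other motifs. The Atp5c1 window holds 1 NRF-1 match and 2 GABP matches. The Atp5i window holds 3 GABP matches, 1 YY1 match and 2 E-boxes.

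Windows were matched by gene ID for 64 of the 75 subunit genes. At least 1 NRF-1, GABP or YY1 match was present in 45 of these 64 (70.3%), against 22.6% of all 33469 promoter windows, and in no subunit window did a GABP and a YY1 match overlap. The GABP letters were in 35 windows (54.7%, against 16.6% of all), the YY1 letters in 25 (39.1%, against 6.96%) and the NRF-1 consensus in 4 (6.25%, against 1.24%). E-boxes were in 41 (64.1%, against 72.1%), a TATA box in 3 (4.69%, against 14.2%) and the MEF2 consensus in 1, that of Cox6a2 (1.56%, against 3.29%). The subunit windows also differed in composition from all windows. Their median GC share was 57.5%, against 51.7%. Their median count of CpG (C followed by G) was 20, against 7. The part of this composition in the motif shares was not tested. A match describes letters in the window and is no evidence of binding.

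All values below are log2 intensities after each array was scaled to a common 75th percentile, and a change is high minus regular density. The p-values come from limma's moderated linear model over 13681 features, adjusted by Benjamini-Hochberg, and a feature is called at an adjusted p under 0.05. They weigh the spread between these samples together with a spread borrowed from the other features, and 2 arrays per group limit the precision. Of all features, 1780 were higher and 2453 lower. That split depended on the scaling, being 1394 higher and 578 lower without scaling, 1203 and 3246 under median scaling and 1943 and 1519 under cyclic loess. Without high density replicate 1 the number called fell from 4233 to 2412. Of the 8 endothelial and progenitor markers examined, Cdh5, Vwf and Eng lay above background on every array and Prom1 on the high density arrays. Pecam1 lay above background on 1 regular density array only, Kdr on 1 high density array only, and Cd34 and Tek on none.

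Most subunit genes differed little between the cultures. All 75 lay above background on all 4 arrays and were tested, and 5 were called (6.67%, against 30.9% of all features). Higher at high density were Cox6b2 and Uqcrb (2.67%, against 13.0%), and lower were Cox6a2, Ndufb10 and Atp5h (4%, against 17.9%). A change beyond 1.5-fold was reached by Cox6a2 and Cox6b2 (2.67%, against 20.3% of all features and 19.1% of those of like brightness, defined below). Cox6a2 was the subunit gene called with a fold of at least 2 (6.34% of all features were). The changes of the 70 subunit genes that were not called ran from -0.36 to 0.29, each gene being read by its brightest probe. A second Ndufa13 probe, with a mean log2 intensity of 11.6, gave -0.43.

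**Figure D1:**
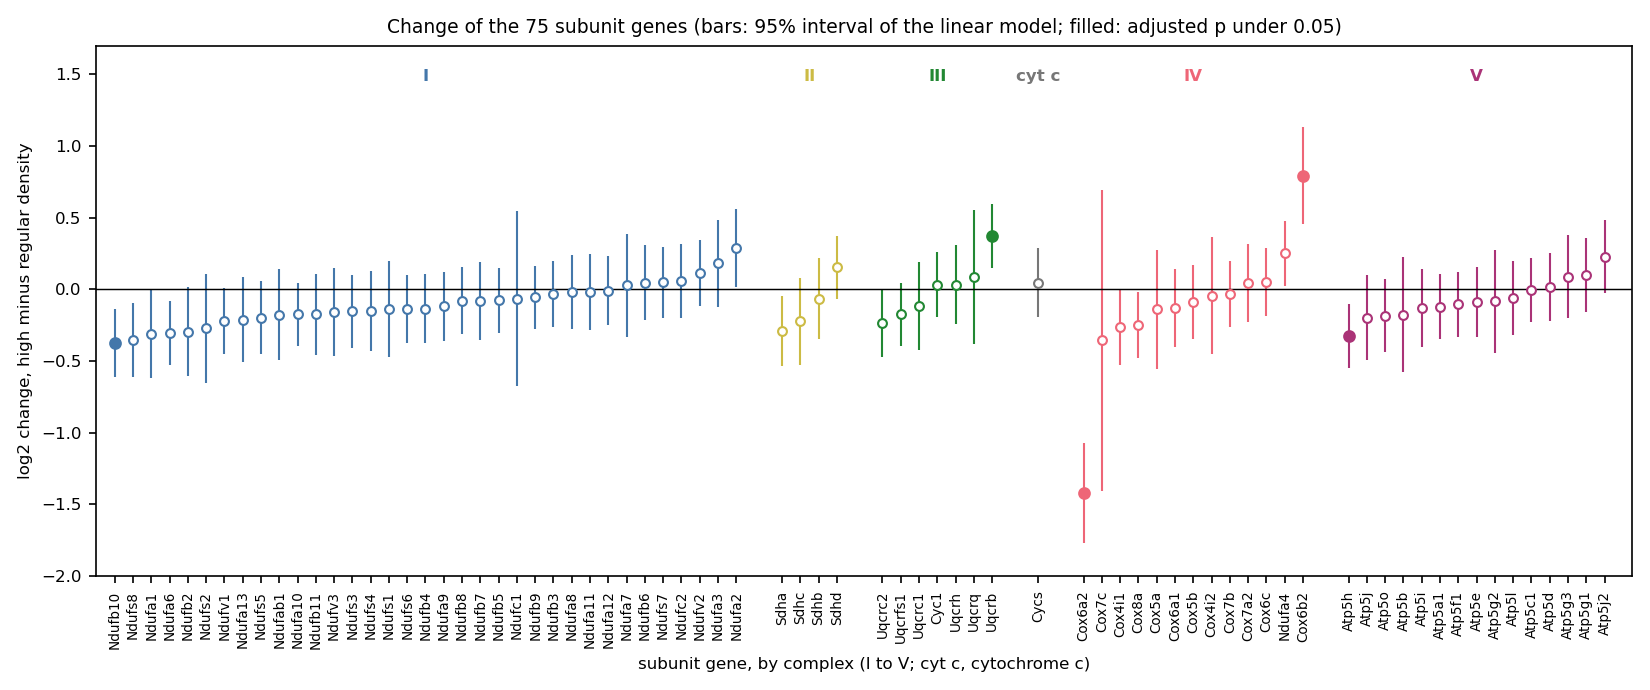
Log2 change, high minus regular density, of the 75 subunit genes (horizontal axis, ordered within each complex) with the 95% interval of the linear model over 2 arrays per group. Filled points mark adjusted p under 0.05, and the points of Cox6a2 (-1.42) and Cox6b2 (0.79) stand farthest from 0.

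The subunit genes also varied less among themselves than features in general. Without Cox6a2 and Cox6b2, left out for their values, the SD of their changes over genes was 0.16, which has no like figure among all features. With all 75 genes it was 0.24, against 0.59 over all features and 0.52 over the 1753 features of like brightness (mean log2 intensity 11.0 to 12.9, the middle 50% of the subunit genes). Of those like-bright features 37.1% were called, 10.3% higher and 26.8% lower. An unadjusted p under 0.05 was reached by 14 of the 75 genes (18.7%, against 43.6% of all features). The 95% interval stayed within 1.5-fold either way for 65 of the 75 genes and within 2-fold for 72, the exceptions to the latter being Cox6a2, Cox6b2 and the dim Cox7c.

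Both high density arrays lay above both regular density arrays for 7 subunit genes (9.33%, against 28.1% of all features), below them for 29 (38.7%, against 41.7%), and overlapped them for 39. The groups were thus apart for 36 of 75 genes (48%), against 69.7% of all features. The median of the 75 genes on each array was 11.94 and 11.85 at high density and 12.02 and 12.03 at regular density. Their median change was -0.090, against -0.08 over all features and -0.14 over features of like brightness. Between the arrays numbered 1 it was -0.074 and between those numbered 2 it was -0.097. The sign of this median followed the scaling: it was 0.040 under quantile scaling, 0.035 in the authors' normalized values, 0.015 without scaling and 0.087 under cyclic loess, and it was -0.22 under median scaling. The median of all features moved as well, to -0.20 under median scaling and 0.03 without scaling. No direction for the subunit genes as a whole is therefore given.

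Brightness moved with the change. Over all features the median change went from 0.08 at a mean log2 intensity under 7 to -0.39 at 14 or more, and the median subunit gene stood at the 86.2th percentile of brightness. Of the subunit genes, 48 of 75 lay above the median of the features in their own range of brightness, including all 18 with a mean log2 intensity of 13 or more. The part of brightness in the changes of single genes was not tested.

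**Figure D2:**
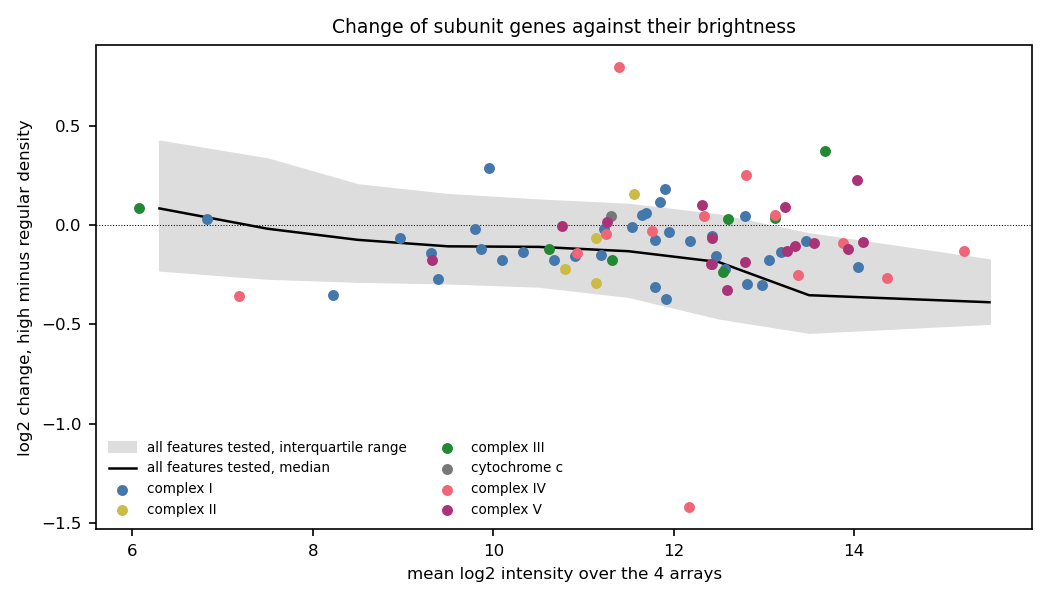
Log2 change, high minus regular density (vertical axis), against mean log2 intensity over the 4 arrays for the 75 subunit genes, coloured by complex. The black line and grey band give the median and interquartile range of all tested features in 9 ranges of brightness, the median falling from 0.08 in the dimmest to -0.39 in the brightest.

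The complexes had similar medians. The median change was -0.13 for complex I, -0.15 for complex II, 0.031 for complex III, -0.090 for complex IV and -0.090 for complex V, and the single cytochrome c gene stood at 0.047. The subunits of a complex share their arrays and are not replicates, and no test was made between complexes. Under quantile scaling complex V stood highest of the complexes (0.12) and complex II lowest (-0.073), while under median scaling all stood below 0. The median of complex III was also below 0 under quantile scaling (-0.021), under cyclic loess (-0.0023) and in the authors' values (-0.024). The order of the complexes thus changed with the scaling, complex III being highest under 75th percentile, median and no scaling only. Those settings shift the change of every gene by the same amount, so they must give the same order and are no separate support.

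**Figure D3:**
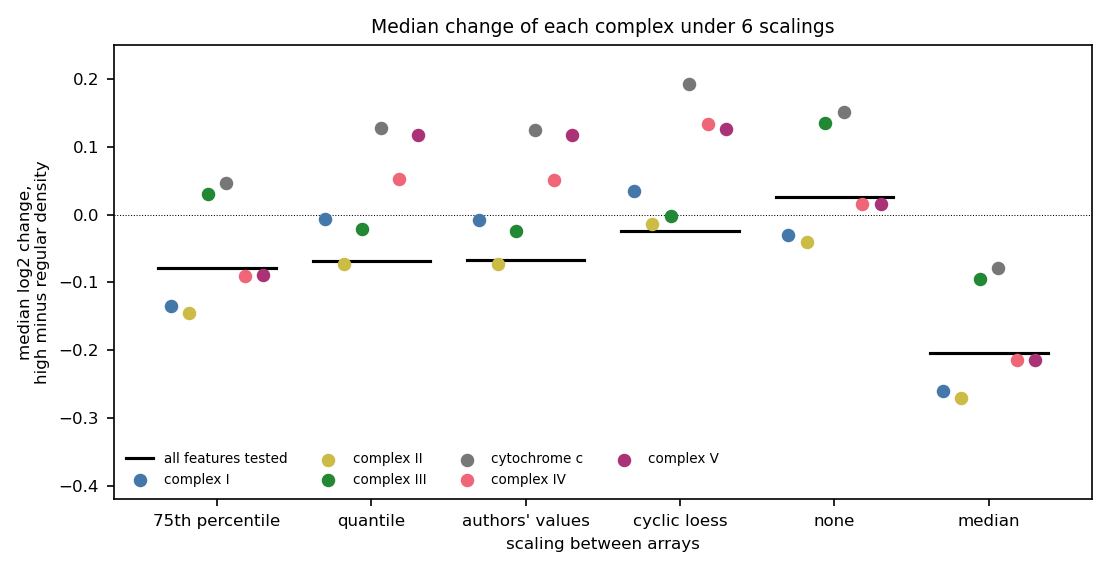
Median log2 change, high minus regular density, of each complex and of cytochrome c (coloured points) and of all tested features (black bars) under 6 ways of scaling between arrays. Complexes I and II lie lowest under 75th percentile scaling (-0.13 and -0.15), and the medians move above or below 0 with the scaling.

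Complex I, which oxidises NADH, had 1 of 35 subunit genes called (30.9% of all features were). Ndufb10, an accessory subunit of its membrane arm, read 11.67 and 11.79 at high density and 12.10 and 12.11 at regular density. The groups did not overlap, and Ndufb10 fell by 0.37 on the log2 scale (SE 0.10, adjusted p = 0.0302). A further Ndufb10 probe gave -0.24. The call did not hold under quantile scaling (-0.27, adjusted p = 0.0894), nor without high density replicate 1 (adjusted p = 0.257), high density replicate 2 (adjusted p = 0.0739) or regular density replicate 2 (adjusted p = 0.0574).

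Of the 35 complex I genes, Ndufb10 included, 17 had both high density arrays below both regular density arrays (41.7% of all features did) and 2 had both above (28.1% of all features did). The core subunits carry the flavin and the iron-sulphur clusters. Ndufv1, which binds the flavin and NADH, read 12.48 and 12.44 at high density and 12.73 and 12.64 at regular density, a change of -0.22 (SE 0.10, adjusted p = 0.127). Ndufs1, the largest iron-sulphur subunit, read 9.18 and 9.31 against 9.21 and 9.56, and its groups overlapped. The median was -0.15 over the 7 core genes and -0.10 over the 28 accessory ones. Ndufs8, a core iron-sulphur subunit, lay just outside the threshold at -0.35 (SE 0.11, adjusted p = 0.0501), and the accessory Ndufa6 at -0.30 (SE 0.09, adjusted p = 0.05002). The largest positive change was that of Ndufa2, 0.29 (SE 0.11, adjusted p = 0.1002), with values of 10.17 and 10.02 against 9.90 and 9.71.

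Complex II, succinate dehydrogenase, is the enzyme that the citric acid cycle and the respiratory chain share. None of its 4 genes was called by limma (30.9% of all features were), and none on the authors' normalized values (27.3% were). An unadjusted p under 0.05 was reached by 1 of the 4 (43.6% of all features). Sdha, the flavin subunit, read 11.02 and 10.96 at high density and 11.21 and 11.36 at regular density. Its groups did not overlap and its change was -0.29 (SE 0.10, adjusted p = 0.0724), and it was called lower under median scaling, with the replicate number as a block and without regular density replicate 1. Sdhd, a membrane anchor, read 11.64 and 11.63 against 11.48 and 11.48, a change of 0.15 (SE 0.09, adjusted p = 0.239), and was called higher under cyclic loess (0.31, adjusted p = 0.0435). The iron-sulphur subunit Sdhb changed by -0.067 (SE 0.12), with overlapping groups, and the other anchor Sdhc by -0.22 (SE 0.13), which was called with the block (adjusted p = 0.0446).

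In complex III, which passes electrons from coenzyme Q to cytochrome c, Uqcrb was the gene called. Uqcrb, a small subunit near the quinone site, read 13.83 and 13.89 at high density and 13.49 and 13.49 at regular density. The groups were apart by more than either group's own spread, and Uqcrb rose 1.29-fold (log2 change 0.37, SE 0.09, adjusted p = 0.0277). The rise was 0.62 on the authors' normalized values (adjusted p = 0.00397) and 0.61 under cyclic loess, so its size depended on the scaling by more than 1.5 times on the log2 scale. It was not called under median scaling (0.25, adjusted p = 0.197). It was also not called without high density replicate 1 (adjusted p = 0.140), high density replicate 2 (adjusted p = 0.172) or regular density replicate 2 (adjusted p = 0.0509).

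The other complex III genes were not called. The core subunit Uqcrc2 had the lowest change, -0.24 (SE 0.10, adjusted p = 0.107), with both high density arrays below. The Rieske iron-sulphur protein Uqcrfs1 read 11.25 and 11.21 against 11.40 and 11.41, a change of -0.18 (SE 0.09). Cyc1, the cytochrome c1 of the complex, read 12.59 and 12.65 against 12.56 and 12.62 and changed by 0.031 (SE 0.09). Cycs, cytochrome c itself, read 11.30 and 11.36 against 11.22 and 11.35 and changed by 0.047 (SE 0.10). The groups of both Cyc1 and Cycs overlapped. A second Cycs probe, dimmer than the first, gave -0.15, so the sign of Cycs depended on the probe.

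Complex IV held the 2 largest changes of the respiratory chain, and they ran in opposite directions. Cox6a2, the muscle isoform of subunit 6A, read 11.57 and 11.35 at high density and 13.05 and 12.71 at regular density. Every high density value lay over 1 log2 unit below every regular density value, and Cox6a2 was 2.68-fold lower (log2 change -1.42, SE 0.15, 95% interval -1.77 to -1.07, adjusted p = 0.00131). Cox6a2 was called under each alternative of scaling, filter and probes, without a variance trend, with robust moderation and with the block. Its change ranged from -1.59 to -1.24 when left-out arrays are included. Only scaling and left-out arrays moved the change, since Cox6a2 was read by 1 probe and the other alternatives kept its values. The unmoderated test, which calls no feature at all, gave adjusted p = 0.125. The authors' table places the Cox6a2 probe at chr1:187464580-187464639, on an assembly the sources used here do not name.

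Cox6b2, the testis isoform of subunit 6B, read 11.94 and 11.64 at high density and 11.11 and 10.87 at regular density. Both high density values lay above both regular density values, and the ratio of Cox6b2 was 1.73 (log2 change 0.79 with a 95% interval of 0.46 to 1.13, SE 0.14, adjusted p = 0.00903). Cox6b2, also read by 1 probe, was called under the same alternatives. Its change ranged from 0.64 to 0.94 when left-out arrays are included, and again only scaling and left-out arrays moved it. Its probe lies at chr1:67811691-67811750 in the authors' table.

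**Figure D4:**
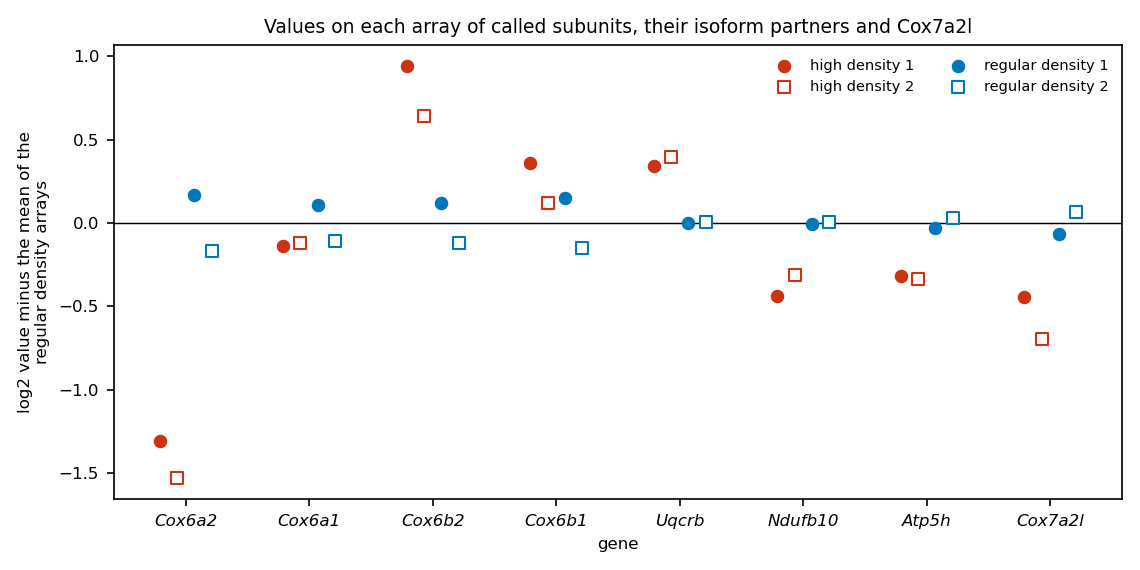
Log2 value of each gene on each array minus that gene's mean over the regular density arrays, for the 5 called subunit genes, the isoform partners Cox6a1 and Cox6b1, and Cox7a2l. Red marks are high density and blue marks regular density, filled circles replicate 1 and open squares replicate 2, and the red marks of Cox6a2 lie lowest.

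The widespread partners of these isoforms were not called. Cox6a1 read 15.15 and 15.17 at high density and 15.40 and 15.18 at regular density, a change of -0.13 (SE 0.11, adjusted p = 0.414). Cox6b1, which the file lists under a locus name and the rule does not catch, read 13.52 and 13.28 against 13.31 and 13.01, a change of 0.24 (SE 0.14, adjusted p = 0.240) with overlapping groups. On the authors' normalized values Cox6b1 was called higher (0.48, adjusted p = 0.0282).

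A log ratio of 2 genes on the same array does not depend on how the array is scaled by a constant. The Cox6a2 to Cox6a1 ratio was lower at high density by 1.29 on the log2 scale, with the high density arrays at -1.17 and -1.41 and the regular density arrays at 0.06 and -0.06 from the regular density mean (pooled SD 0.14). The Cox6b2 to Cox6b1 ratio was higher by 0.55, with high density arrays at 0.58 and 0.52 and regular density arrays at -0.03 and 0.03 (pooled SD 0.04). In both ratios the groups were apart by more than their spread. Both reuse the Cox6a2 and Cox6b2 values given above and are no separate support. An exact permutation test of 2 against 2 arrays, two-sided, gave p = 0.333 for each, the smallest value that the design allows. The ratio of Atp5g2 to Atp5g3, which changed by -0.17, gave the same p, so this test cannot single out the Cox6 ratios. The ratio of Cox4i2, the isoform of subunit 4 tied to lung and low oxygen, to the widespread Cox4i1 changed by 0.22, with overlapping groups (exact permutation p = 0.667).

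Markers of other cells were read beside these isoforms. Of 8 striated muscle markers 3 were bright enough to test, and Myh6, Myh7 and Tnni3 lay above background on no array. The summed scaled intensity of the 8 markers was 542 to 644 at high density and 586 to 683 at regular density, and these ranges overlapped. Tnnt2, the brightest, weighs most in this sum. Tnnt2, a troponin, changed by 0.36 (SE 0.12, adjusted p = 0.0598) with both high density arrays above, and Des, desmin, by -0.44 (SE 0.22, adjusted p = 0.168). Myog, a factor of skeletal muscle differentiation, read 5.43 and 5.34 at high density and 7.06 and 6.92 at regular density, and was called lower (-1.60, adjusted p = 0.00208). Myog passed the filter on dim probes only through the regular density arrays. The smooth muscle markers Acta2, Actg2, Myh11, Tagln and Mylk were higher, and Cnn1 was above background on the high density arrays only. The summed intensity of these 6 markers was 145657 to 150698 at high density and 14757 to 15317 at regular density.

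The cell division markers Ccnb1, Cdk1, Ccna2 and Bub1 were higher, and Top2a, also called higher, lay above background on 1 of 2 regular density arrays and passed the filter only through high density. With Top2a their sums were 3443 to 3525 against 1098 to 1115. Of 7 monocyte and macrophage markers, all above background on every array, C1qa (2.77) and Adgre1 (0.45) were higher and Cd14 (-0.38) was lower, and their sums were 29848 to 34635 against 27544 to 29089. Of 7 fibroblast and stromal markers, also above background on every array, Thy1 (1.204) and Lum (0.40) were higher and Dcn (-1.34) was lower. The sums of the 7 overlapped, at 244726 to 261461 against 222759 to 256523, and the collagen genes Col1a1, Col1a2 and Col3a1 weigh most in them. Cd14 was not called under quantile scaling, under cyclic loess, without scaling or on the authors' values. Adgre1 and Lum were not called under median scaling or without scaling. The part of these cell types and of cell division in the changes of Cox6a2 and Cox6b2 was not tested. In bulk RNA of a culture, fewer cells of a type and less RNA per cell cannot be told apart.

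The remaining 11 complex IV genes were not called, and their median was -0.090. Cox4i1 read 14.28 and 14.19 at high density and 14.58 and 14.42 at regular density, a change of -0.27 (SE 0.11, adjusted p = 0.106), but 0.051 on the authors' normalized values. Cox4i2 read 11.42 and 11.05 against 11.46 and 11.10, and replicate numbers differed more than groups. Cox5a and Cox5b, which contact the catalytic core, changed by -0.14 (SE 0.17) and -0.090 (SE 0.11), with overlapping groups. Cox8a, the widespread isoform of subunit 8, changed by -0.25 (SE 0.10, adjusted p = 0.0912), with both high density arrays below.

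Ndufa4 read 12.97 and 12.89 at high density and 12.66 and 12.70 at regular density, a change of 0.25 (SE 0.09, adjusted p = 0.0912). On the authors' normalized values it was called higher (0.46, adjusted p = 0.0124). Counting Ndufa4 with complex I instead, as its symbol does, gave medians of -0.13 for complex I and -0.11 for complex IV. Cox7a2, the widespread isoform of subunit 7A, changed by 0.044 (SE 0.11) on its brighter probe and -0.014 on the other. Cox7c was the least precise, with 6.52 and 7.49 at high density and 6.79 and 7.93 at regular density, so that replicate 2 was the brighter in both groups (change -0.36, SE 0.44).

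In complex V, 1 of 15 genes was called (30.9% of all features were). Atp5h (now Atp5pd), the d subunit of the peripheral stalk, read 12.44 and 12.42 at high density and 12.73 and 12.79 at regular density. Atp5h fell by 0.33 on the log2 scale (SE 0.09, adjusted p = 0.0397), with groups that did not overlap. The call was lost on the authors' normalized values (-0.14, adjusted p = 0.271) and without high density replicate 1 (adjusted p = 0.216), high density replicate 2 (adjusted p = 0.205) or regular density replicate 2 (adjusted p = 0.0845). Atp5hl1, a copy of Atp5h, gave 12.41 and 12.39 against 12.83 and 12.72, and how far the probes of the 2 genes bind each other's RNA was not tested.

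The catalytic head of the ATP synthase showed no called gene. Atp5a1 (now Atp5f1a), the alpha subunit, read 13.87 and 13.86 against 14.02 and 13.96, a change of -0.12 (SE 0.09). Atp5b (now Atp5f1b), the catalytic beta subunit, read 9.17 and 9.28 against 9.16 and 9.65, a change of -0.18 (SE 0.17), with overlapping groups. The median was -0.090 over the 5 genes of the F1 head and -0.094 over the 10 genes of the membrane part and stalks. Atp5g1, Atp5g2 and Atp5g3 encode the same c subunit of the proton-driven ring with different import signals. On their brightest probes they changed by 0.098 (SE 0.11), -0.084 (SE 0.15) and 0.088 (SE 0.12), and all 3 had overlapping groups. A second, dimmer Atp5g2 probe read 13.52 and 13.68 at high density and 13.96 and 13.91 at regular density. Its change was -0.34 and its groups did not overlap, so the result for Atp5g2 depended on the probe. The second Atp5g3 probe gave -0.019. Atp5c1 (now Atp5f1c), the gamma subunit of the rotating stalk, and Atp5i (now Atp5me), of the membrane part, were not called, with changes of -0.0037 (SE 0.09) and -0.13 (SE 0.11). Atp5j2 (now Atp5mf), of the membrane part, had the highest change of the complex, 0.23 (SE 0.11, adjusted p = 0.151), and was called higher on the authors' normalized values (0.50, adjusted p = 0.00980).

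On the authors' normalized log2 values, 8 subunit genes were called (27.3% of 13592 features were). Higher were Atp5g3, Atp5j2, Cox6b2, Cox6c, Ndufa4 and Uqcrb (13.4% of features were), and lower were Cox6a2 and Ndufs8 (13.8%). Cox6a2, Cox6b2 and Uqcrb are the 3 genes that both sets share. Under quantile scaling the same numbers were called, 6 higher and 2 lower, with 27.1% of all features called (13.4% higher and 13.7% lower). Median scaling called 1 subunit gene higher and 7 lower, against 8.79% and 23.7% of all features (32.5% in all). Without scaling 1 was higher and 1 lower, against 10.2% and 4.22% of all features (14.4% in all). Cyclic loess called 6 higher and 1 lower, against 14.2% and 11.1% of all features (25.3% in all). Cox6a2 and Cox6b2 were the 2 genes that stayed called under every scaling tried, which were quantile, median, none, cyclic loess and the authors' own.

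Other genes caught by the symbol rule are no subunits. The assembly factor count was 1 of 7 called (30.9% of all features were). Cox7a2l, which helps join complexes III and IV into supercomplexes, read 12.29 and 12.04 at high density and 12.68 and 12.81 at regular density. Cox7a2l fell by 0.57 on the log2 scale (SE 0.12, adjusted p = 0.0159), a call that was lost without high density replicate 2 (adjusted p = 0.0714) and under cyclic loess (-0.38), and it was not called without scaling either. Atp5sl (now Dmac2) changed by 0.32 (SE 0.12, adjusted p = 0.0876) and Atp5s (now Dmac2l) by 0.095 (SE 0.20). The complex I assembly factors Ndufaf1, Ndufaf3 and Ndufaf4 changed by 0.22 (SE 0.13), -0.28 (SE 0.12) and 0.13 (SE 0.10), and Sdhaf2, which attaches the flavin of complex II, by -0.26 (SE 0.10).

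Of the 5 copies or pseudogenes, 4 could be tested and 2 were called lower (17.9% of all features were). Ndufa10l1 fell by 0.47 (SE 0.11, adjusted p = 0.0204) and Atp5hl1 by 0.37 (SE 0.10, adjusted p = 0.0297), with high density below on both arrays. The authors place the Ndufa10l1 probe at chr9:91655487-91655546, near that of the subunit gene Ndufa10 at chr9:91654891-91654950. Ndufa10 changed by -0.18 and was not called, and whether the 2 probes read the same RNA was not tested. Without high density replicate 1 Ndufa10l1 had adjusted p = 0.145, and the Atp5hl1 call held only when the second regular density array was the one left out. Neither was called without scaling or under cyclic loess, and Atp5hl1 was also not called on the authors' values (-0.19, adjusted p = 0.142). Ndufb4l1 changed by -0.25 (SE 0.10) and Cox6c1 by -0.30 (SE 0.20). Ndufa13-ps lay above background on no array and was not tested. The unrelated Cox4nb (now Emc8) changed by 0.11 (SE 0.12). The gene IDs that the file gives for Ndufa13 and Ndufs6 stand for pseudogene entries in the current reference, so these rows may not measure the named subunits alone.

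Some genes of the complexes are not caught by the rule, being listed in the table under another symbol, under none or not at all, and were read from all the spots. Uqcr10 changed by 0.050 (SE 0.11), Uqcr11 by 0.0017 (SE 0.14), Ndufa5 by -0.068 (SE 0.09) and Atp5if1, the inhibitor of ATP hydrolysis, by -0.054 (SE 0.10). The muscle isoform Cox7a1 was dim, at 5.98 and 6.31 against 6.39 and 6.26 (change -0.18, SE 0.20). The muscle isoform Cox8b and the testis isoform Cox8c lay above background on no array. Ndufa4l2 and Cox7b2 were not analysed here.

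Genes that serve the respiratory chain were read from 5 further lists. Complex assembly factors had 2 higher and 7 lower of 37 tested (24.3% called, against 30.9% of all features), with a median of -0.18, against -0.08 over all features. Foxred1, an assembly factor of complex I, read 10.21 and 10.01 at high density and 8.26 and 7.87 at regular density. The ratio of Foxred1 was 4.13, a log2 change of 2.04 (SE 0.15) at adjusted p = 3.90e-04, with groups far apart, and each left-out array kept the call. Higd1a, a small protein induced by low oxygen that binds complex IV, read 4.59 and 5.33 against 6.75 and 7.18. Higd1a was called lower, with a measured difference of -2.01 (SE 0.31, adjusted p = 0.00588). Of the high density arrays 1 of 2 read it above background, and with its high density mean under 5.62 it passed the filter on dim probes only through the regular density arrays, so the size of its difference is uncertain. Surf1, needed to build complex IV, fell by 0.62 (SE 0.11, adjusted p = 0.00895), and it was not called without scaling.

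With an array left out, the number of assembly factors called changed, as did that of all features. Their median change ranged from -0.23, without regular density replicate 2, to -0.16, without high density replicate 2. The Foxred1 call held under all scalings tried, and no count of assembly factors was tested against the subunits.

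**Figure D5:**
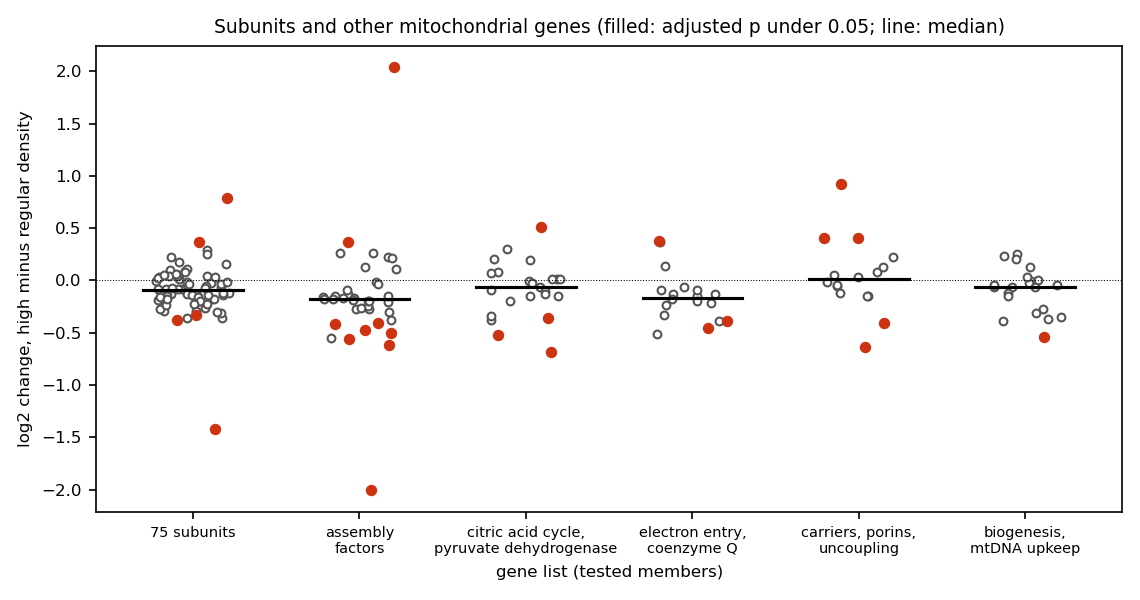
Log2 change, high minus regular density, of the 75 subunit genes and of the tested members of 5 lists of other mitochondrial genes (1 point per gene, spread sideways for visibility). Red points mark adjusted p under 0.05 and black lines medians, and the assembly factor Foxred1 stands highest (2.04). The point of Higd1a, plotted at -2.01, rests on high density values near background.

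Of 23 citric acid cycle and pyruvate dehydrogenase genes tested, 1 was higher and 3 were lower (17.4% called, against 30.9% of all features), with a median of -0.062. Pdk1, a kinase that switches off pyruvate dehydrogenase and is induced by low oxygen, read 7.29 and 7.38 at high density and 8.07 and 7.98 at regular density. Pdk1 fell by 0.69 (SE 0.12, adjusted p = 0.00796) and its relative Pdk2 by 0.52 (SE 0.12, adjusted p = 0.0212). Idh2, the mitochondrial NADP-linked isocitrate dehydrogenase, read 12.51 and 12.44 against 12.03 and 11.88 and rose by 0.52 (SE 0.10, adjusted p = 0.0130). Without high density replicate 1, Pdk2 and Idh2 were not called. Idh2 was also not called under median scaling (0.39, adjusted p = 0.0744). Citrate synthase, Cs, changed by -0.062 (SE 0.11).

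Among 18 genes of electron entry and coenzyme Q, 1 was higher and 2 were lower (16.7% called, against 30.9% of all features), with a median of -0.17. Coq8b, of coenzyme Q synthesis, rose by 0.37 (SE 0.10, adjusted p = 0.0316). Etfa, which takes electrons from fatty acid oxidation, fell by 0.46 (SE 0.13, adjusted p = 0.0422), and Pdss2, of the coenzyme Q side chain, by 0.39 (SE 0.12, adjusted p = 0.0473). These calls depended on single arrays: without high density replicate 1 limma called none of the 3.

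Of 16 genes of nucleotide and phosphate carriers, porins and uncoupling, 3 were higher and 2 lower (31.3% called, close to the 30.9% of all features), with a median of 0.014. Ckmt1, the mitochondrial creatine kinase, read 7.98 and 7.62 at high density and 7.07 and 6.68 at regular density. Ckmt1 rose by 0.93 (SE 0.19, adjusted p = 0.0147). Slc25a1, the citrate carrier, fell by 0.64 (SE 0.10, adjusted p = 0.00667) with 8.43 and 8.34 against 9.07 and 8.97, and Slc25a13, an aspartate and glutamate carrier, rose by 0.41 (SE 0.10, adjusted p = 0.0264). Every left-out array kept the calls of Ckmt1 and Slc25a1, and Slc25a13 kept its call only when the first regular density array was the one left out. The ATP and ADP carriers Slc25a4 and Slc25a5 changed by 0.12 (SE 0.11) and 0.050 (SE 0.09), and the porin Vdac1 by -0.011 (SE 0.10).

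Of 21 genes of mitochondrial biogenesis and mitochondrial DNA upkeep, 1 was called (4.76%, against 30.9% of all features), with a median of -0.061. Polg2, the accessory subunit of the mitochondrial DNA polymerase, read 6.85 and 6.96 against 7.52 and 7.37 and fell by 0.54 (SE 0.14, adjusted p = 0.0280), a call lost when the first array of either group was left out. For the NRF-1, GABP and YY1 motifs searched in the promoters, Nrf1 changed by 0.21 (SE 0.12), Gabpa by -0.35 (SE 0.13) and Yy1 by -0.039 (SE 0.10). None of these was called. Factors that bind the E-box or the MEF2 motif were not examined as a list. Tfam, which packs and transcribes mitochondrial DNA, changed by -0.38 (SE 0.16, adjusted p = 0.110). The coactivator Ppargc1a lay above background on no array. Of the list genes described as called here, Surf1, Pdk1, Pdk2, Coq8b, Etfa, Pdss2, Slc25a1, Slc25a13 and Polg2 were not called without scaling.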

How the data were processed

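Intensity of each spot, on a linear scale, was deposited by the authors for 4 arrays and was made with Agilent Feature Extraction 11.0.1.1, per the submitters' processing notes. The authors also deposited normalized log2 values, whose method is not given in the sources used here, and a matrix of the same log2 values.

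Control spots were left out, repeated spots of a probe were averaged on the log2 scale, and each array was scaled to a common 75th percentile. Probes with a mean log2 value over 5.62, the median of all probes, were tested, and the brightest probe stood for its gene. Background was the 99th percentile of 153 negative control spots.

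Groups were compared without pairing with limma 3.58.1 in R 4.3.3 (moderated variances with an intensity trend, two-sided, Benjamini-Hochberg over 13681 features), after the fit was tested on simulated data. Python 3.11.15, pandas 2.3.3 and matplotlib 3.10.9 served for tables and plots. Whether replicates came from separate animals is not given.

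The members, lists and promoter motifs were chosen with earlier results of these data known. Genes were named by rule: up to 6 called subunits per complex, isoform groups, key subunits, genes that are no subunits, genes whose probes differ in sign, and up to 3 called genes per list. Ndufa2, Ndufa6, Ndufs8, Uqcrc2, Atp5j2, Cox7c, the other genes at the edges of the threshold, and those given without a call from the lists were named after their values were seen. Alternatives covered scaling, filter, probes, variance model, fold, block and left-out arrays, and cyclic loess was added after seeing the data.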

Additional observations from a re-analysis of the deposited data

How the results depend on the processing

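No named gene that was called reversed under any alternative. The number of features called was 4233 and became 1972 without scaling, 7020 with a replicate block, 868 with a fold of at least 2 and 2412 to 3961 with an array left out. The number of subunit genes lower, 3, was 7 under median scaling, 1 without scaling, 5 as a mean over probes, 5 with every probe a feature, 1 with no variance trend, 15 with the block, 1 under cyclic loess, 1 with a fold of at least 2 and 1 to 7 with an array left out. In the same order the share of all features lower, 17.9%, was 23.7%, 4.22%, 18.3%, 17.7%, 14.3%, 30.2%, 11.1%, 1.703% and 9.08% to 16.3%. The number higher, 2, was 6 under quantile scaling, in the authors' values, in the series matrix and under cyclic loess, 1 under median scaling, without scaling and with no variance trend, 5 with the block, 0 with a fold of at least 2 and 1 to 2 with an array left out. The share of all features higher, 13.0%, lay between 4.64% and 21.1% in these settings. The unmoderated limma test called 0 features and 0 subunit genes, with 3938 and 13 at an unadjusted p under 0.05.

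The median of all subunit genes was 0.040 under quantile scaling, 0.035 in the authors' values and in the series matrix, -0.22 under median scaling, 0.015 without scaling, 0.087 under cyclic loess and -0.10 to -0.062 with an array left out. In the same order of settings, complex I gave -0.0063, -0.0072, -0.26, -0.029, 0.035 and -0.10 to -0.072, complex IV 0.053, 0.051, -0.22, 0.015, 0.13 and -0.12 to -0.021, complex V 0.12, 0.12, -0.21, 0.016, 0.13 and -0.12 to -0.033, and cytochrome c 0.13, 0.13, -0.079, 0.15, 0.19 and -0.020 to 0.11. Complex II gave -0.27 under median scaling, -0.013 under cyclic loess and -0.25 to -0.037 with an array left out. Complex III, 0.031 as reported, gave -0.021 under quantile scaling, -0.024 in the authors' values, -0.0023 under cyclic loess, -0.094 under median scaling, 0.14 without scaling, -0.044 under the stricter filter and -0.086 to 0.060 with an array left out, and cytochrome c -0.051 as a mean over probes. The cause of these shifts was not tested.

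The labels give both groups the numbers 1 and 2, and same-numbered arrays deviated together (Pearson's r over features 0.37), but the sources do not say that a number marks a shared experiment. With the number as a block, 20 of 75 subunit genes were called (26.7%, against 51.3% of all features), 5 of them also without it, and the call of no other named gene was lost. With 2 arrays per group, the 95% interval of 6 subunit genes that were not called reached beyond 1.5-fold.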
